A study of Mus musculus with 4 samples.

Results

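The imprinted *Dlk1-Meg3* domain of mouse chromosome 12 was examined through 6 of its genes, the paternally expressed *Dlk1*, *Rtl1* and *Dio3* and the maternally expressed *Meg3*, *Rian* and *Mirg*. They were taken by gene name from a table of 56883 genes, and all 6 were among the 14323 genes abundant enough to test, for which the mean over the 4 libraries had to reach 10 normalized counts. The table holds RNA sequencing of tdTomato-positive cells, sorted by FACS from the basal telencephalon of E14.5 mouse embryos, with 2 libraries per genotype. Control embryos were *Sst-Cre/tdTomato* and knockout (KO) embryos *Sst-Cre/tdTomato/Dnmt1 loxP2*, so that both genotypes carried the Cre driver and the reporter. Cre is produced from the *Sst* locus in postmitotic somatostatin-positive (SST+) cells, was inherited from the mother, and removes exons 4 and 5 of *Dnmt1*. The mice were on a C57BL/6J background, with a *Dnmt1 loxP2* allele from a B6;129 strain. Males and females were not separated, and each of the 2 libraries of a genotype was a separately handled pool of cells from several embryos. The study's methods give 50000 cells pooled per genotype for the RNA, and how this pool relates to the 2 libraries is not stated there. The p-values thus rest on the spread between pools, in part shared across genes, and not on that between single embryos.

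Imprinted genes are expressed mainly from the copy inherited from one parent. In the *Dlk1-Meg3* domain a control region between *Dlk1* and *Meg3* is methylated on the paternal copy, which expresses the protein-coding genes, and unmethylated on the maternal copy, which expresses a run of long noncoding RNAs and the many microRNAs and small nucleolar RNAs embedded in them. DNMT1 copies DNA methylation to the new strand when DNA is replicated, and the imprint is known to be kept in this way in dividing cells. The libraries count RNA from both copies together and carry no methylation readout, so a level here is the sum over the parental copies. The study also sequenced DNA methylation in sorted cells of both genotypes from this tissue and age. Those methylation data are not used here.

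Of the 6 genes, *Dlk1* fell and *Meg3* rose in the *Dnmt1* KO. *Dlk1*, a transmembrane relative of the Notch ligands that restrains differentiation, was 1.78-fold higher in control than in KO libraries. *Meg3*, a nuclear long noncoding RNA, was 1.14-fold higher in KO than in control libraries. The remaining 4 genes, of which 2 are paternally and 2 maternally expressed, did not pass the test. A gene was called where its adjusted p (limma on log2(normalized count + 1), Benjamini-Hochberg over the 14323 genes) was below 0.05. By this rule 2 of the 6 members were called, 1 in each direction, while 17.3% of all tested genes were called, 8.3% as higher and 8.99% as lower in the KO. The values of the genotypes did not overlap for 4 of the 6 members, against 57.4% of all tested genes, and a share of this size is near the background.

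Sequencing depth was even, with 6970247 to 8376711 reads per library recovered from the normalized counts. All 12 markers of SST interneurons were detected, *Sst* itself included, and 11 of them rose in the KO. Their summed normalized counts were 22253 and 22577 in control and 34204 and 34676 in KO libraries. Between the 2 libraries of a genotype the spread exceeded that of counting alone (chi-square per degree of freedom 2.71 in control, 2.31 in KO). The targeted gene, *Dnmt1*, stood at 2238 and 2341 normalized counts in control and at 2164 and 2210 in KO libraries. The log2 difference of -0.07 did not pass the test (limma adjusted p = 0.461). The floxed exons span 211 and 79 bases of the 8500 bases of annotated *Dnmt1* exons. The count over the whole gene in these libraries therefore does not check the deletion. The paper's own check was made elsewhere. It reports lower *Dnmt1* counts in KO cells sorted from the E14.5 cortex, and less DNMT1 protein in tdTomato-positive cells of E14.5 KO sections.

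The domain lies on chromosome 12 of the GRCm39 build, and runs over 829 kb from the start of *Dlk1* to the end of *Dio3*. *Dlk1* (109418749 to 109429262, plus strand) is followed after 77.6 kb by *Meg3* (109506877 to 109538165, plus strand). *Rian* (109570242 to 109628150, plus strand) begins 32.1 kb beyond *Meg3*, and *Mirg* (109696198 to 109715898, plus strand) a further 68.0 kb along. *Rtl1* (109555627 to 109582007) lies on the minus strand, between *Meg3* and *Rian*, and its span runs into that of *Rian* without sharing exon bases. *Dio3* (110245502 to 110247531, plus strand) stands apart, 530 kb beyond *Mirg*.

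**Figure D1:**
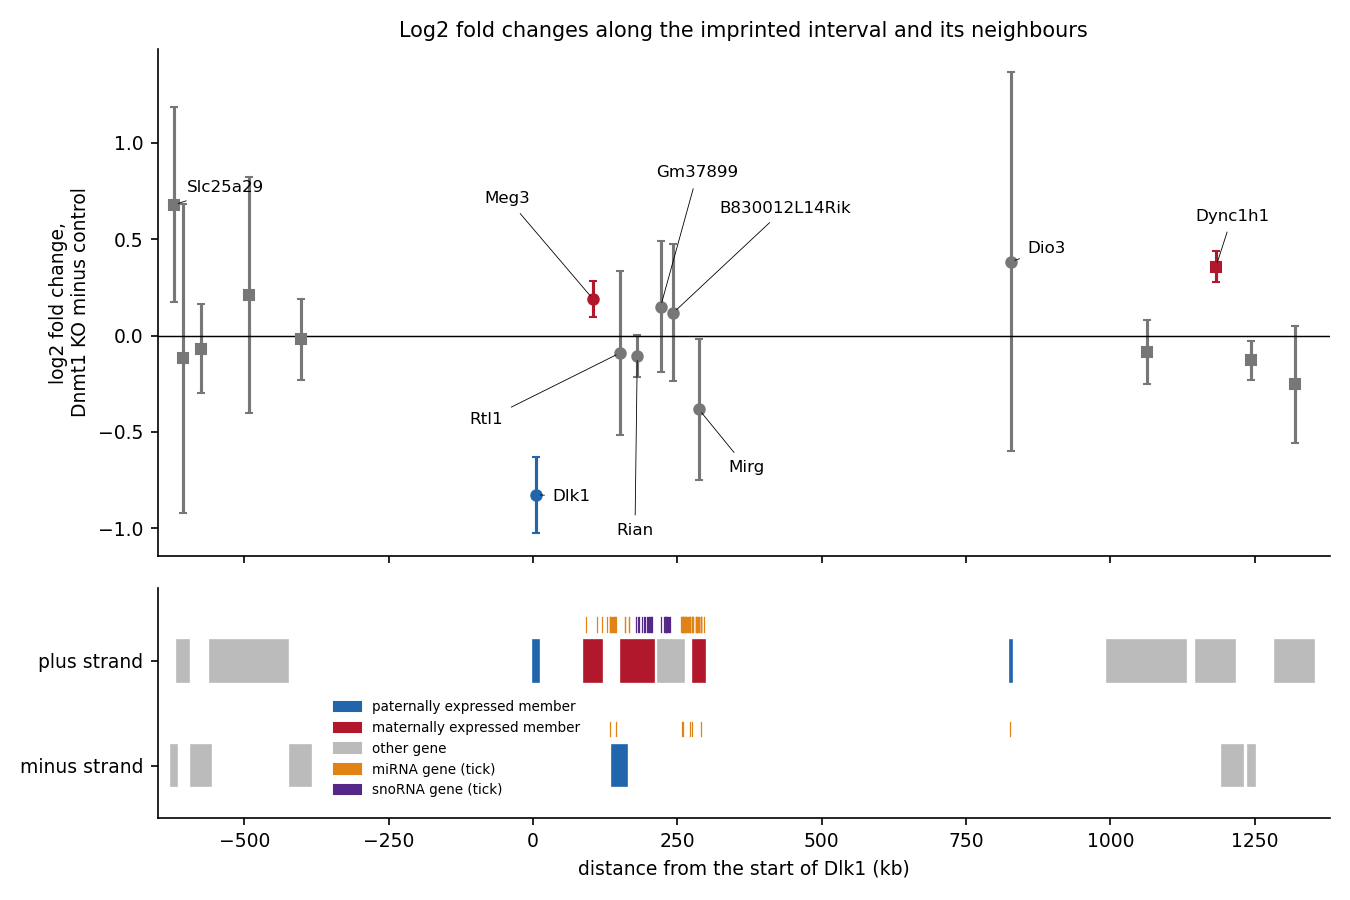
Top, log2 fold change (*Dnmt1* KO minus control, points, with 95% confidence interval) of each tested gene of the domain (circles) and of its neighbours (squares) against distance in kb from the *Dlk1* start; blue is called lower, red called higher and grey not called. Bottom, the genes by strand, to scale; inside the domain *Dlk1* at -0.83 and *Meg3* at 0.19 were called, and outside it *Dync1h1* at 0.36.

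*Dlk1* (ENSMUSG00000040856, protein coding) carried 695 and 626 normalized counts in control, against 387 and 357 in KO libraries. Both KO libraries lay below both control libraries, and the gap between the genotypes was wider than the range within either. The means were 661 ± 49.1 in control and 372 ± 20.8 in KO (SD, n = 2). The log2 fold change of *Dlk1* was -0.83 with a 95% confidence interval from -1.02 to -0.63, and passed the test (limma adjusted p = 1.82e-05). *Dlk1* was also called on recovered reads, with an adjusted p of 1.18e-05 in edgeR and 8.22e-08 in DESeq2, which called 2 of the 6 members beside 9.2% of all tested genes. Among the 14323 tested genes 6.06% had a lower log2 fold change than *Dlk1*. Limma without a trend of the variance over mean expression, under which 0 genes were called at all, gave *Dlk1* an adjusted p of 0.0681. In bulk RNA from sorted cells, fewer cells of a type and less RNA per cell cannot be told apart.

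Markers of other cell types were lower in the KO beside *Dlk1*. Summed blood markers were 2610 and 2433 normalized counts in control and 587 and 592 in KO libraries, with 8 of 8 tested markers lower and *Hemgn* at 0 throughout. For vascular and meningeal cells the sums were 762 and 801 in control and 331 and 357 in KO, and 9 of 9 tested markers fell. Radial glia and cycling progenitor markers summed to 14727 and 14853 in control and 9324 and 9527 in KO. Of these 12 markers 11 were lower, 8 of them called, and 1, *Sox2*, was called higher. Excitatory lineage markers, at 2972 and 3029 in control and 1612 and 1456 in KO, were lower in 8 of 8 cases, of which 7 were called. Microglial markers summed to 82.3 and 103 in control and 30.6 and 43.7 in KO. All 3 tested were lower without overlap, beside 57.4% of all tested genes whose genotypes did not overlap. Of these 3 markers 1 was called by limma and 0 by DESeq2. Over all tested genes 17.3% were called by limma and 9.2% by DESeq2. The SST interneuron markers moved the other way, as given above. The paper itself lists several of them, among them *Dlx2*, *Dlx5*, *Sox6*, *Maf*, *Satb1*, *Lhx6* and *Erbb4*, as upregulated in these KO cells. The part of these cell types in the fall of *Dlk1*, or in any other difference given here, was not tested.

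Of the other paternally expressed members, *Rtl1* (ENSMUSG00000085925, protein coding) derives from a retrotransposon and is known for its role in placenta and muscle. It stood at 80.5 and 88.8 normalized counts in control and 72.0 and 87.4 in KO libraries. The genotypes overlapped, and the log2 fold change of -0.09 had a confidence interval from -0.52 to 0.33 (limma adjusted p = 0.807). A fall as large as the estimate for *Dlk1* lies outside that interval. With quantile normalization, or without KO replicate 1, the estimate for *Rtl1* was just above 0, at 0.0082 and 0.047, so its direction depended on the processing.

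*Dio3* (ENSMUSG00000075707, protein coding), the deiodinase that inactivates thyroid hormone, was the least expressed member, with 66 reads over the 4 libraries. Its normalized counts were 17.9 and 10.2 in control and 22.7 and 14.2 in KO. These values overlapped, and the confidence interval of the log2 fold change of 0.38 ran from -0.60 to 1.37 (limma adjusted p = 0.631). With so few reads the interval covers both falls and rises.

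**Figure D2:**
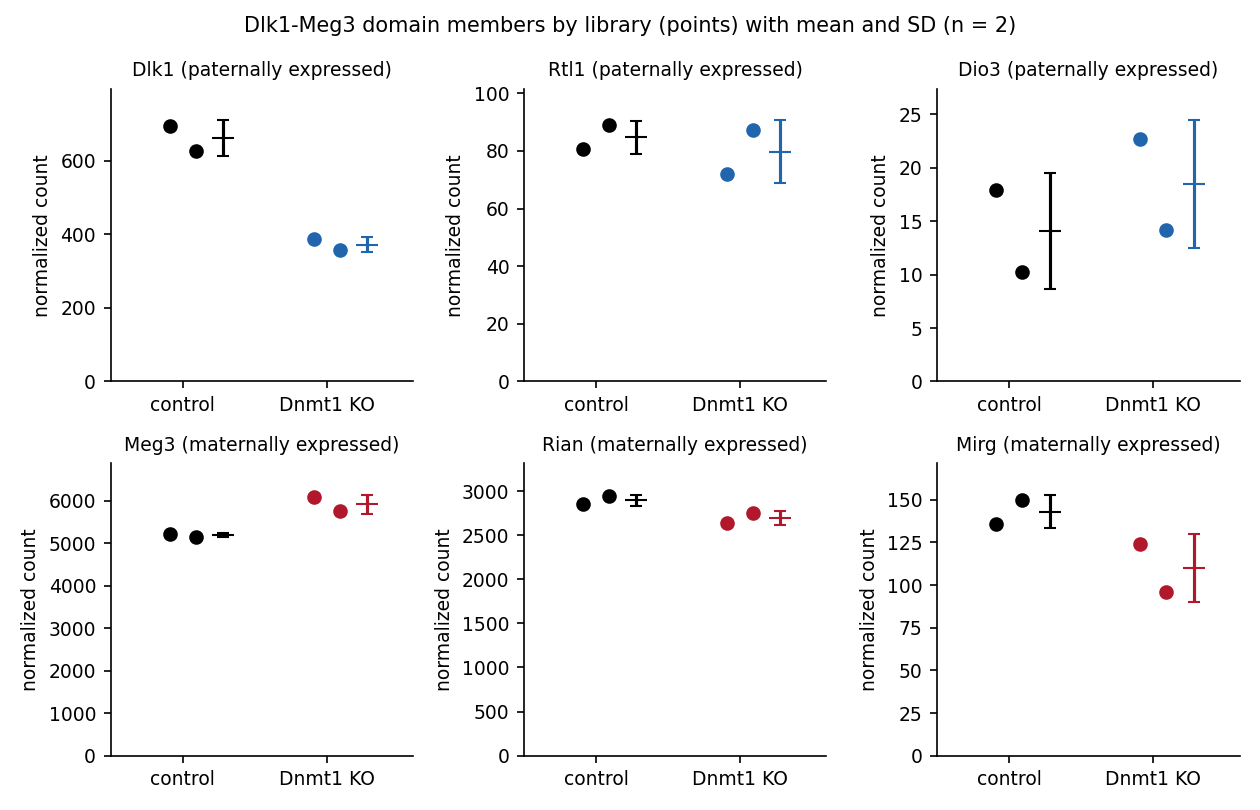
Normalized count (vertical axis, from 0, with a scale for each gene) of each member in the 2 control (black) and 2 *Dnmt1* KO (coloured) libraries, with mean and SD (n = 2) beside the points. *Dlk1* separates downwards, from 626 to 695 in control to 357 to 387 in KO, and *Meg3* upwards, while *Rtl1* and *Dio3* overlap.

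*Meg3* (ENSMUSG00000021268, long noncoding RNA) stood at 5223 and 5153 normalized counts in control and at 6082 and 5756 in KO libraries. Both KO libraries were above both control libraries, although they lay further from each other than the control libraries did. The means were 5188 ± 49.4 in control and 5919 ± 231 in KO (SD, n = 2). The log2 fold change of *Meg3* was 0.19 with a confidence interval from 0.09 to 0.28 (limma adjusted p = 0.00833). Its adjusted p was 0.00929 in edgeR and 0.0089 in DESeq2. The size was modest for these data, since 25.5% of tested genes had a higher log2 fold change. Without KO replicate 1 the log2 fold change of *Meg3* was 0.15 and no longer passed (limma adjusted p = 0.111), and without the variance trend the adjusted p was 0.309. Removing the trend of each library over transcript length and GC content raised it to 0.33, 1.03e-04 being the adjusted p.

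The promoter of *Meg3* is shown because mammalian DNA methylation sits mostly at CpG dinucleotides, and the knockout removes a DNA methyltransferase. The sequence is from the GRCm39 reference, chr12:109506629-109506928 on the plus strand, 5′ to 3′, from 250 bases before the canonical start of *Meg3* to 50 bases after, with every CpG in capitals.
Meg3: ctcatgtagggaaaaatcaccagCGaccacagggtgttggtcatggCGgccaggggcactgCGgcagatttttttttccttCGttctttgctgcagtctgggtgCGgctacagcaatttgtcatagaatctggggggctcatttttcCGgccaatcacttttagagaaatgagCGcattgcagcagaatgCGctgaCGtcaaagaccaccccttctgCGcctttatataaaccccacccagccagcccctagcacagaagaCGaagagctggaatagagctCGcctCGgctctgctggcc
In this 300-base window *Meg3* had 13 CpGs, around a median of 17 over 14284 promoters, and 60.96% of promoters had more. *Dio3* had 31 CpGs in the same window, *Rtl1* had 5, and *Rian* and *Mirg* had 0. The letters TGCCGC, bound by the imprint-keeping factor ZFP57 when methylated, were searched on both strands. They occurred once in the windows of these 5 genes, on the minus strand of *Meg3*, and in 15.8% of all promoters. CpG content is a property of the reference and says nothing of methylation in these cells.

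*Rian* (ENSMUSG00000097451, long noncoding RNA), host of 13 annotated snoRNA genes and 4 miRNA genes on its own strand, was not called. It carried 2853 and 2941 normalized counts in control and 2633 and 2746 in KO, so that the KO libraries were the lower ones. The log2 fold change was -0.11, with a confidence interval from -0.22 to 0.0022 (limma adjusted p = 0.175). Under quantile normalization the same gene passed as lower, at -0.15 (limma adjusted p = 0.0406).

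*Mirg* (ENSMUSG00000097391, long noncoding RNA), which holds 14 miRNA genes on its strand, gave 136 and 150 normalized counts in control and 124 and 96.1 in KO. Again the KO libraries were the lower ones, without overlap. The log2 fold change was -0.38, its confidence interval ran from -0.75 to -0.02, and after adjustment over all genes it did not pass (limma adjusted p = 0.146). It rested on 513 reads in all. Without KO replicate 1 *Mirg* passed, at -0.57 (limma adjusted p = 0.0494), and over all omissions of a library the estimate ran from -0.57 to -0.20.

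Of the 3 maternally expressed RNAs, *Meg3* rose, and *Rian* and *Mirg* had lower values in the KO that did not pass. On the log2 scale the *Meg3* to *Rian* ratio was 0.87 and 0.81 in control and 1.21 and 1.07 in KO libraries, a difference of 0.30. That of *Meg3* to *Mirg* differed by 0.58, from 5.26 and 5.10 in control to 5.61 and 5.90 in KO. The *Rian* to *Mirg* ratio was 4.39 and 4.29 in control and 4.40 and 4.84 in KO, with 1 KO library next to the controls. A ratio within a library does not depend on the library's size factor, and none of the 3 could reach a p below 0.333, the smallest value the exact permutation test gives for 2 against 2.

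Set against each other, the called members moved apart. *Meg3* had 7.51 and 8.23 reads for each read of *Dlk1* in control libraries, and 15.7 and 16.1 in KO libraries. On the log2 scale the ratio was 2.98 ± 0.094 in control and 3.99 ± 0.024 in KO (SD, n = 2), a difference of 1.02. The exact two-sided permutation test gave p = 0.333, which is the smallest it can give here. The summed maternally expressed members exceeded the summed paternally expressed ones 10.3 and 11.4 times in control and 18.4 and 18.7 times in KO, a log2 difference of 0.77 with the same exact p of 0.333. Neither ratio is scaled for length, so its size within a genotype also reflects the lengths of the genes. The exons of *Meg3* cover 19.3 kb and those of *Dlk1* 6.03 kb. In both sums 1 gene dominated. *Dlk1* made up 87.6% and 86.3% of the paternal sum in control and 80.3% and 77.9% in KO libraries. *Meg3* made up 63.6% and 62.5% of the maternal sum in control and 68.8% and 66.9% in KO. The 6 genes together took 11.9 to 12.2 of every 10000 reads of a library, and the genotypes overlapped.

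**Figure D3:**
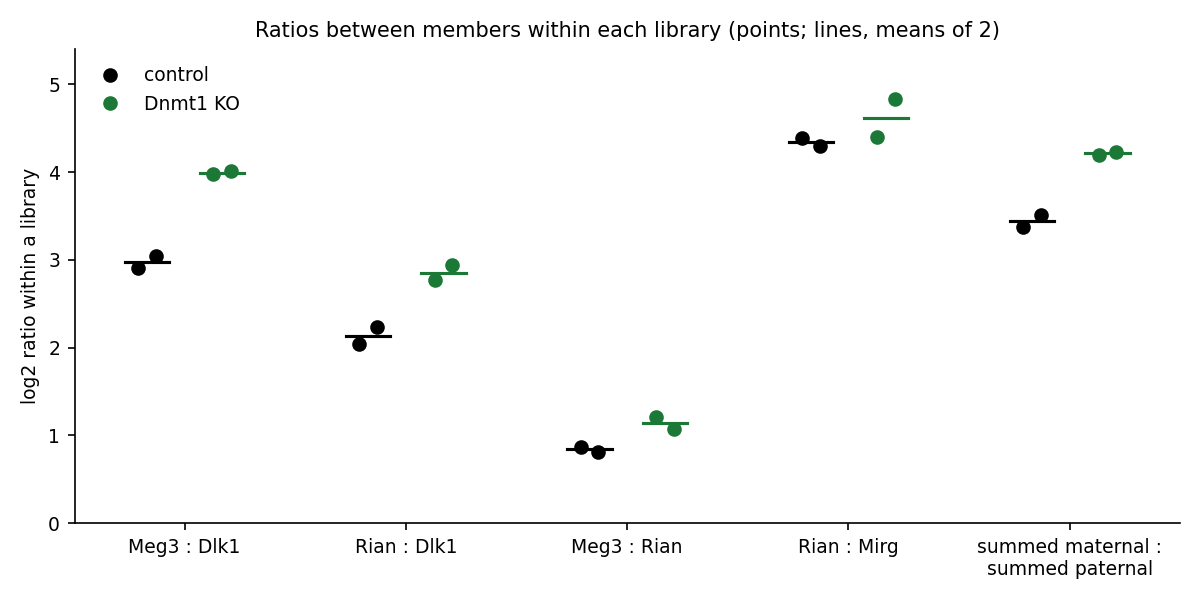
Log2 ratios (vertical axis) between members, or between the summed maternally and summed paternally expressed members, in each control (black) and *Dnmt1* KO (green) library, with the mean of 2 as a line. The *Meg3* to *Dlk1* ratio rises from 2.98 to 3.99 on average, while *Rian* to *Mirg* has 1 KO library beside the controls.

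Per kb of exons, *Meg3* had the highest level of the 6 members, with a mean of 288 normalized counts per kb and a range from 267 to 315 over the 4 libraries. *Rian* at 87.3 (82.3 to 92.0) and *Dlk1* at 85.6 (59.2 to 115) followed and overlapped each other. In control libraries *Dlk1* was above *Rian* per kb, with 115 and 104 against 89.2 and 92.0, and in KO libraries it was below, with 64.1 and 59.2 against 82.3 and 85.9. *Mirg* at 13.1 and *Rtl1* at 12.1 normalized counts per kb overlapped, as did *Rtl1* and *Dio3*, which ran from 5.03 to 11.2. The same order held with the length of the longest annotated transcript, although *Rian* then stood at 346 per kb, close to the 382 of *Meg3*. *Dlk1* then stood at 111 per kb, below *Rian*. The change of order between *Dlk1* and *Rian* thus depended on the length used. Among 747 tested long noncoding RNAs *Meg3* ranked 16th per kb, *Rian* 36th and *Mirg* 242nd. Among 12278 tested protein-coding genes *Dlk1* ranked 2551st, *Rtl1* 9017th and *Dio3* 10040th per kb.

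**Figure D4:**
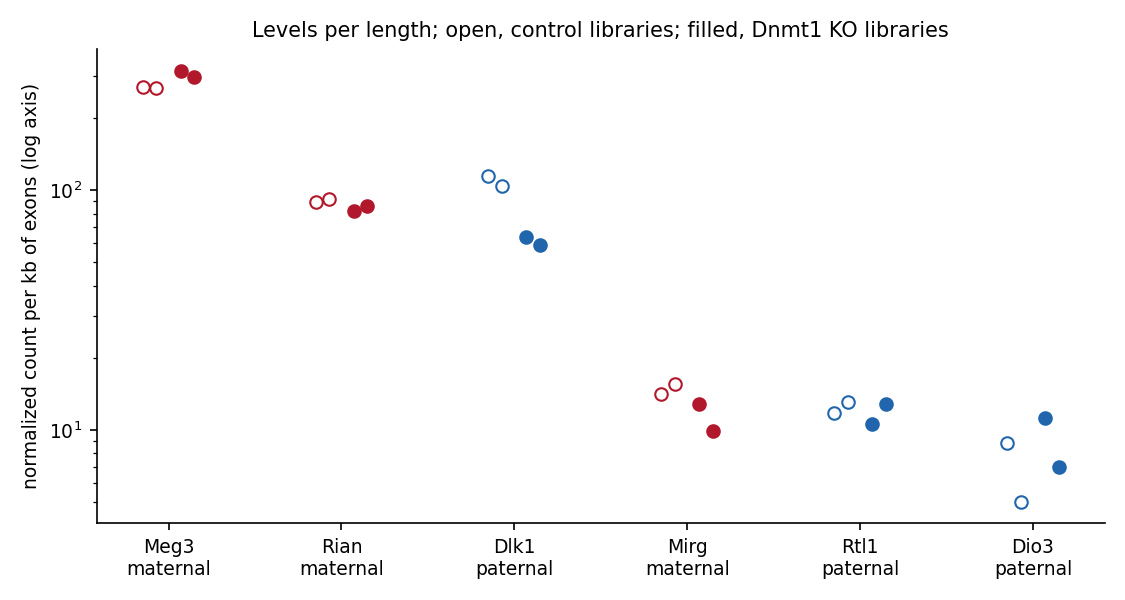
Normalized count per kb of exons (logarithmic axis) of each member in the control (open) and *Dnmt1* KO (filled) libraries; blue is paternally and red maternally expressed. *Meg3* lies between 267 and 315, *Dlk1* crosses from above to below *Rian*, and *Mirg*, *Rtl1* and *Dio3* lie at 15.5 or below. The crossing depends on the length used, since with the longest transcript *Rian* stood at 346 and *Dlk1* at 111.

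Between *Dlk1* and *Dio3* the annotation holds 128 genes, among them 67 miRNA and 23 snoRNA genes. Of the 116 measured here, 20 had a read and 8 could be tested. Besides the members these were the noncoding transcripts *Gm37899* and *B830012L14Rik*, which lie between *Rian* and *Mirg* on the plus strand. *Gm37899* had 115 and 139 normalized counts in control and 138 and 142 in KO (log2 fold change 0.15, limma adjusted p = 0.581). *B830012L14Rik* had 113 and 149 in control and 143 and 139 in KO (0.12, limma adjusted p = 0.688). The genotypes overlapped for both, and the genes share 815 exon bases, so their counts are not independent. The 2 called genes among these 8 are the members *Dlk1* and *Meg3* themselves, and all tested genes were called at 17.3%.

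The small RNAs of the domain were nearly unseen. All 90 miRNA and snoRNA genes were in the table, but 6 had a read, with 21 reads in all over 4 libraries. Counts of host transcripts and of processed small RNAs are different measurements, and the long-RNA libraries do not report the latter.

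Some of these miRNAs matter for *Rtl1*, since 8 miRNA genes lie inside it on the opposite, maternally expressed strand, 6 of them within its exons. The mature miRNAs can therefore pair fully with the *Rtl1* mRNA, and miR-127 and its neighbours are known to direct its cleavage. Of 15 mature sequences from these 8 genes (RefSeq, build GRCm38.p6), 11 had their exact reverse complement in the 6358-base *Rtl1* transcript, and the 11 seeds were all different. One arm for each of 5 of these genes is shown, with the seed, bases 2 to 8, in capitals.
miR-127-3p: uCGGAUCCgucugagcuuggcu
miR-136-5p: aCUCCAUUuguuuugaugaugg
miR-431-5p: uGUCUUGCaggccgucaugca
miR-433-3p: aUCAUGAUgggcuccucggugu
miR-434-3p: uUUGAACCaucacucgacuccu
From the 5′ end of the *Rtl1* transcript the paired sites begin at base 199 for miR-136-5p, 965 for miR-434-3p, 2642 for miR-127-3p, 3749 for miR-433-3p and 5072 for miR-431-5p. No miRNA gene opposite *Rtl1* exceeded 1.97 normalized counts in any library, and only *Mir433* had a read. Annotated genes of the other strand share 627 bases, or 9.21%, of the *Rtl1* exons and 729 bases, or 7.55%, of the *Mirg* exons. The strand setting of the counting is not given in the sources used here, and reads in those bases are uncertain.

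Outside the domain, the 5 nearest protein-coding genes on either side were taken as neighbours, and 9 of the 10 could be tested. *Dync1h1*, the heavy chain of cytoplasmic dynein, was the 1 gene called, while 17.3% of all tested genes were called. It rose from 12633 and 12714 normalized counts in control to 15898 and 16583 in KO, a log2 fold change of 0.36 (limma adjusted p = 8.87e-06). *Slc25a29*, a mitochondrial carrier, had 48.3 and 39.8 in control and 74.0 and 67.7 in KO, and did not pass (0.68, limma adjusted p = 0.0626). Nearest to the domain, *Begain* had 402 and 363 in control and 385 and 369 in KO (-0.02, limma adjusted p = 0.924), and on the far side *Ppp2r5c* had 748 and 827 in control and 745 and 735 in KO (-0.09, limma adjusted p = 0.496). The count of called neighbours depended on the processing, from 0 to 3.

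Imprinted genes elsewhere in the genome gave a comparison by parent of origin. Of 24 other paternally expressed genes 22 were tested and 10 called, 3 as higher and 7 as lower. Over all tested genes 17.3% were called, 8.3% as higher and 8.99% as lower. The median log2 fold change of the list was -0.11, beside -0.0033 for all tested genes. *Peg12* fell most, from 105 and 69.4 normalized counts in control to 28.6 and 25.1 in KO (-1.63, limma adjusted p = 6.74e-04). *Igf2*, a fetal growth factor, fell from 132 and 132 to 67.1 and 71.0 (-0.92, limma adjusted p = 0.00221). The host transcript *Snhg14* rose from 670 and 969 to 1512 and 1228 (0.76), and *Kcnq1ot1*, an antisense RNA that silences its neighbours, from 862 and 786 to 1400 and 1045 (0.55). DESeq2 on recovered reads called 8 of these 22 genes, against 9.2% of all tested genes. Of the 8, 7 were lower and 1, the noncoding *Peg13*, was higher. The rises of *Snhg14* and *Kcnq1ot1* lost their call there (DESeq2 adjusted p = 0.101 and 0.0669). The paper, which also used DESeq2, lists *Kcnq1ot1* among the genes upregulated in these KO cells.

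Of 23 other maternally expressed genes 18 were tested and 4 called, which is near the 17.3% of all tested genes, with a median of -0.04. *Igf2r*, which clears IGF2 (0.29), and *Ube3a*, a ubiquitin ligase (0.24), rose, while the noncoding *H19* (-0.44) and *Gnas*, a G protein subunit (-0.23), fell. That count of 4 was not robust, being from 1 to 4 over omissions of a library, and in DESeq2 *Gnas* alone was called. *H19*, the neighbour of *Igf2* expressed from the opposite parental copy, had a DESeq2 adjusted p of 0.0997.

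**Figure D5:**
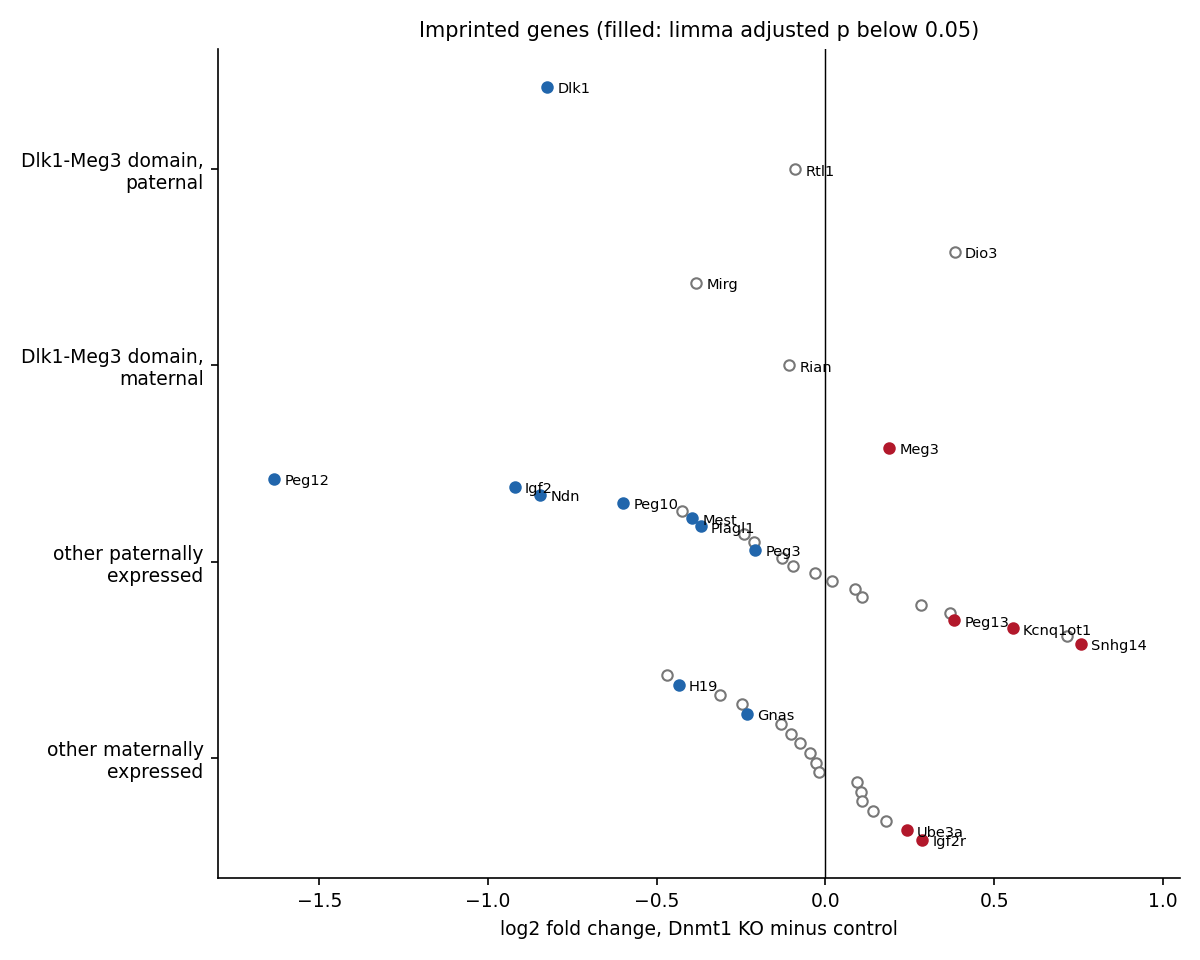
Log2 fold change (*Dnmt1* KO minus control, horizontal axis) of the 6 domain members and of 22 other paternally and 18 other maternally expressed genes, each a point and ordered within its row by size. Filled points passed the test, blue lower and red higher; *Dlk1* at -0.83 lies among the larger falls and *Meg3* at 0.19 below the 3 filled rises of the paternally expressed list.

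Genes that write, read or protect imprint methylation showed 6 calls among 18 tested of 19, with a median of 0.04, while 17.3% of all tested genes were called. *Uhrf1*, which brings DNMT1 to replicating DNA, fell from 572 and 531 normalized counts in control to 339 and 337 in KO (-0.70, limma adjusted p = 8.87e-05). The chromatin remodeller *Hells* fell from 250 and 247 to 159 and 167 (-0.61, limma adjusted p = 0.00357). *Tet3*, which oxidizes methylated cytosine, rose from 2235 and 2102 to 2714 and 2827 (0.35), and the chromatin remodeller *Atrx* from 3181 and 3466 to 4135 and 4168 (0.32). *Uhrf1* and *Hells* are known to be high in dividing cells. The radial glia and cycling progenitor markers, given above as a joint sum, were also lower. A link between these falls was not tested.

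Around *Dlk1*, all 16 genes of the Notch list were tested and 8 called, 2 as higher and 6 as lower, with a median of -0.57. Over all tested genes 17.3% were called. Lists of markers of other cell types, given above, also held large shares of called genes. The receptor *Notch3* fell from 257 and 215 normalized counts in control to 112 and 117 in KO (-1.03, limma adjusted p = 1.60e-04), and the target *Hes5*, also a radial glia marker, from 156 and 153 to 98.6 and 74.3 (-0.84, limma adjusted p = 0.00404). *Cntn1* (0.34) and *Dner* (0.23), neuronal membrane proteins that can bind Notch, rose by limma but were not called by DESeq2 (adjusted p = 0.0908 and 0.111). DESeq2 called 5 genes of the list, all as lower, against 9.2% of all tested genes. The ligand *Jag1* was the third to lose its call. *Dlk2*, the nearest relative of *Dlk1*, had 62.6 and 40.8 in control and 53.3 and 61.2 in KO, with overlap (0.17, limma adjusted p = 0.716).

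Beside *Dio3*, 9 of 14 genes of thyroid hormone handling were tested and 1 was called, against 17.3% of all tested genes. This was the receptor gene *Thra*, which rose from 4686 and 4835 to 5190 and 5295 (0.14, limma adjusted p = 0.0416). It was not called by DESeq2 (adjusted p = 0.0909). Beside *Rtl1*, 7 of 11 retrotransposon-derived genes with a Gag-like product were tested. *Peg10*, imprinted and paternally expressed, fell from 2326 and 2257 to 1473 and 1553 (-0.60), and *Rtl6* rose from 575 and 552 to 694 and 752 (0.36).

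For *Meg3*, *Rian* and *Mirg* the list set beside them was of 17 nuclear or neural long noncoding RNAs, with a median of 0.17. Of these 8 were called, 7 as higher and 1 as lower, against 17.3% of all tested genes. Other than *Snhg14* and *Kcnq1ot1*, both of them imprinted and given above, the largest rise was that of *Sox2ot*, from 829 and 804 to 1263 and 1289 (0.64). *Rmst*, a neural differentiation transcript, fell from 253 and 218 to 93.7 and 97.2 (-1.29). Over all 747 tested long noncoding RNAs 52 were called higher and 26 lower, with a median of 0.12. The log2 fold change of *Meg3*, 0.19, lay next to the median of the list. DESeq2 called 6 of the 17, 5 as higher and 1 as lower, against 9.2% of all tested genes.

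The genes whose values ran most like those of a member over the 4 libraries were found among the 8418 genes whose mean reached 100 normalized counts, by the root mean square distance of log2 values centred on their mean. For *Dlk1* these were *H3c2* (0.018), *Rhbdl3* (0.025) and *Tiam2* (0.026), and for *Meg3* they were *Zbtb6* (0.0044), *Slc39a6* (0.0083) and *Akap6* (0.0086). *Anapc11*, *Ern1* and *Zzz3* were nearest to *Rian*, *Pkig*, *Birc5* and *Unc5a* to *Mirg*, and *Ccm2*, *Calcoco1* and *Ccdc171* to *Rtl1*. The distances for *Dio3* were larger, 0.13 to 0.15, with *4933427D14Rik*, *Whamm* and *Mettl13* nearest. With 4 libraries such likeness is a description, and genes share the same libraries.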

How the data were processed

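Total RNA of the sorted cells was sequenced by the authors with a stranded, ribosomal RNA-depleted, paired-end protocol. Per the labels and the study's methods, reads were trimmed with Trim Galore, aligned to GRCm39 with STAR, quantified by gene with Salmon and normalized with DESeq2 1.32.0 in R 4.3.2. In the deposited signal, counts had been normalized for each library. All 89965 values above 0 came out as whole numbers over 1 size factor per library, to within 0.0001. These whole numbers are called recovered reads, or reads, and may be rounded Salmon estimates. Those recovered reads entered edgeR 4.0.16, DESeq2 1.42.0 and voom as alternatives, because the deposited values are not counts. The main test was limma 3.58.1 (lmFit, eBayes with trend) in R 4.3.3 on log2(normalized count + 1), with genotype as the only term, for genes with a mean of at least 10. Fold changes on this scale understate those of low genes, and confidence intervals are at 95%. The fits were also run on simulated counts with the same dispersion for all genes, which does not check the calls given here. Positions and lengths come from the GENCODE annotation of GRCm39, which held 14285 of the 14323 tested genes. Within each list, called genes with a mean of at least 50 were named by the 2 largest changes in each direction, together with the members, interval and neighbouring genes, and the 3 nearest genes of each member. *Dlk2*, *Peg13*, *Jag1*, and *Sox2* among the markers, were named after their values were seen. The promoter of *Dlk1* is not reported here. The members and all lists were chosen with earlier results of these data known, and parents of origin are those known for at least 1 tissue. Alternatives were other pseudocounts, filters, scalings, variance models and tools, removal of length and GC trends, a replicate block and omission of each library.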

Additional observations from a re-analysis of the deposited data

How the results depend on the processing

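Over 17 alternatives *Dlk1* stayed lower in the KO, from -0.90 to -0.72, and *Meg3* higher, from 0.14 to 0.33. Limma without the variance trend ended both calls at values of -0.83 and 0.19 (adjusted p = 0.0681 and 0.309) and left 0 genes called in the table, in the interval, among the neighbours and in both lists of other imprinted genes. Its smallest adjusted p was 0.0592, and 3339 genes had an unadjusted p below 0.05. DESeq2 called 1317 genes and 1 of the other maternally expressed genes. Quantile normalization turned *Rtl1* to 0.0082, called *Rian* at -0.15, and called 3 neighbours and 2 of the other maternally expressed genes. Called neighbours numbered 2 with TMM rescaling, 2 after removal of length and GC trends and 3 with the replicate block.

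Omission of each library in turn gave 1525 (without control replicate 2) to 2205 genes called, 1 to 2 neighbours and 1 to 4 of the other maternally expressed genes. *Rtl1* ran from -0.23 to 0.047, with the positive value without KO replicate 1, *Meg3* from 0.15 to 0.23 and *Mirg* from -0.57 to -0.20. In these fits the lone library of a genotype is assumed to vary like the others. *Dio3* ran from 0.0061 to 0.76 and is not tested at a mean of at least 50. The cause of these changes was not tested. Over the same omissions the log2 ratio of *Meg3* to *Dlk1* differed by 0.95 to 1.08 and that of the summed members by 0.71 to 0.84.

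Replicate numbers are shared by the genotypes, but nothing in the sources used here says that they pair the libraries. Deviations of same-numbered libraries correlated at -0.0847 over 14323 genes. The replicate block gave 2957 calls beside 2476 and changed no call among the 6 members, with *Dlk1* at -0.83 (adjusted p = 9.10e-15), *Meg3* at 0.19 (0.00258), *Rian* at -0.11, *Mirg* at -0.38, *Rtl1* at -0.09 and *Dio3* at 0.38. Lengths taken from the longest transcript moved the levels per kb of *Dlk1* to 111, *Meg3* to 382, *Rian* to 346 and *Mirg* to 33.1. With 2 libraries per genotype each SD rests on 2 values, and *Dio3* (66 reads) and *Rtl1* (330 reads) are the members that depth limits most.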
